A study of Mus musculus with 594 samples.

Results

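The genes described here are Selenop and 6 metabolic genes that are abundant in liver: Hsd11b1, Ugt1a6a, Adh4, Fbp1, Cps1 and Dpyd. These 7 of the 11807 genes tested are read by 9 of the 22716 probe sets on the array, since Ugt1a6a and Dpyd have more than 1. They were chosen from measured values of these arrays: the levels in DMSO in both lines, and the changes against DMSO of the same line and time at 6 and 24 h. Those levels and changes are therefore given as a description, with standard errors (SE) but without a test. Tests are given for the same genes at 1 h and for other genes of the same pathways.

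The series profiled αTC1 and βTC3, mouse pancreatic endocrine tumour lines of the glucagon and insulin type, on Affymetrix HT arrays after 1, 6 or 24 h with 1 of 29 compounds that act on chromatin enzymes or with the solvent DMSO alone. Per the labels each line was grown in low-glucose medium with serum and seeded 24 h before treatment. The 594 arrays divide into 299 for αTC1 and 295 for βTC3, with 14 DMSO arrays at each time in αTC1, and 12, 10 and 12 DMSO arrays at 1, 6 and 24 h in βTC3. Compound groups held 3 arrays, except for 5 groups of 2 and 1 of 4 in αTC1 at 24 h. The histone deacetylase inhibitors of known class were 8 hydroxamic acids (trichostatin A at 0.22 µM, SAHA at 1.3 µM, LBH-589 at 0.015 µM, PXD101 at 2.4 µM, ITF-2357 at 10 µM, CRA-024781 at 1.5 µM, pyroxamide at 10 µM and scriptaid at 2 µM), 3 ortho-amino anilides (MS-275 at 2.9 µM, CI-994 at 10 µM and MGCD-0103 at 1.1 µM) and the cyclic tetrapeptides apicidin at 1.4 µM and HC-toxin at 0.12 µM. BIX-01294 at 10 µM and chaetocin at 1.7 µM inhibit histone lysine methyltransferases. The series also had the arginine methyltransferase inhibitor AMI-1 at 10 µM and 3 inhibitors of DNA methylation (5-azadeoxycytidine, zebuarine and RG-0108) at 10 µM each. A further 10 compounds are known by code name only, at 0.91 to 10 µM. Each compound had a single dose, and most doses differ between compounds, so compounds and classes are set side by side without a test between them. The labels do not say that replicate arrays came from separate cultures of a line, so SE and p-values measure the spread between arrays, which may be technical.

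In liver these genes sit in separate branches of metabolism. Selenop encodes the secreted selenoprotein P, which the liver releases into plasma to carry selenium to other organs. Hsd11b1 encodes the enzyme that turns inactive glucocorticoid into its active form inside the cell. Ugt1a6a encodes a glucuronosyltransferase that tags phenols for excretion, and Adh4 encodes an alcohol dehydrogenase that also acts on retinol. Fbp1 encodes fructose bisphosphatase, a rate-limiting enzyme of gluconeogenesis. Cps1 encodes carbamoyl phosphate synthetase, the entry enzyme of the urea cycle. Dpyd encodes dihydropyrimidine dehydrogenase, which opens the breakdown of uracil and thymine. Histone deacetylase inhibitors raise histone acetylation and shift the transcription of many genes in either direction.

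Promoter windows were taken from RefSeq (build GRCm38.p6), where 6 of the 7 genes had an entry and Cps1 did not. The 250 bases before the annotated start are shown for the 4 genes whose levels moved most, Selenop and Dpyd, which rose in both lines, and Adh4 and Fbp1, which moved in opposite directions in αTC1. Capitals mark matches, on either strand, to any of 8 short motifs. These were the TATA box TATAAA, the CCAAT box, the GC box GGGCGG, the forkhead motif TGTTTAC, its variant form TGTTTGC, the C/EBP motif TTGCNNAA, the HNF1 partial site GTTAAT, and the antioxidant response element TGACNNNGC. Overlapping matches of different motifs were each counted.
Selenop, chr15:3270727-3270976, plus strand: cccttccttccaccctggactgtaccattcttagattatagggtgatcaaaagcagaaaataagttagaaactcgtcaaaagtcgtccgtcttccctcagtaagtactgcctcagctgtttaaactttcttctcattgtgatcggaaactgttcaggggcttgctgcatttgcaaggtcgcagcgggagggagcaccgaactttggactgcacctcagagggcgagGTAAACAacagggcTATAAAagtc
Dpyd, chr3:118561930-118562179, plus strand: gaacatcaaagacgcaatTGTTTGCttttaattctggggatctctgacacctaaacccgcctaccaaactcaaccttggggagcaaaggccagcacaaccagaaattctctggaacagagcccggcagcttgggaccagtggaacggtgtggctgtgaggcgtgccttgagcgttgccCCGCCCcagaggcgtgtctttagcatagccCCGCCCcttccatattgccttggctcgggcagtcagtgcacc
Adh4, chr3:138415247-138415496, plus strand: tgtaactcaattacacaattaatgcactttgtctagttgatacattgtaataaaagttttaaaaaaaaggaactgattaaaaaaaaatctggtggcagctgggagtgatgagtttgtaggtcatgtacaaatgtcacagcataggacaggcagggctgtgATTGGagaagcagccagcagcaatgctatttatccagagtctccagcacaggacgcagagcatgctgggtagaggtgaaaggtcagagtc
Fbp1, chr13:62888283-62888532, minus strand: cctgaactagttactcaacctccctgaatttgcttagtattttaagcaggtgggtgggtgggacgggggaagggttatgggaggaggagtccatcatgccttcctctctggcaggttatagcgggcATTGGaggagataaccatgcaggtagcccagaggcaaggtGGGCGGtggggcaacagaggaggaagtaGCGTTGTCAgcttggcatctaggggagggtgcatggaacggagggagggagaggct
The Selenop window, 1 of 3 that RefSeq starts give this gene, holds TATAAA and a forkhead match on the opposite strand (GTAAACA). Its other 2 windows hold none of the 8 motifs. The Dpyd window holds GGGCGG at 2 places on the opposite strand and TGTTTGC on its own strand. The Adh4 window holds only CCAAT on the opposite strand, and the Fbp1 window holds that motif, GGGCGG and an antioxidant response element match. Of 32851 windows of this length, 12.4% hold TATAAA, 33.8% CCAAT, 32.7% GGGCGG, 3.17% TGTTTAC, 4.3% TGTTTGC, 9.56% TTGCNNAA, 6.43% GTTAAT and 10.2% TGACNNNGC. CpG pairs number 8 in the Selenop window, 10 in that of Dpyd, 5 in that of Fbp1 and 1 in that of Adh4, against a median of 6 over all windows. These matches describe letters in the window, and binding was not measured.

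Each line read its own hormone gene at a high level. In DMSO at 24 h Gcg (glucagon) read 12.32 ± 0.25 (SD, n = 14) on the log2 intensity scale in αTC1 and Ins2 (insulin) 13.2 ± 0.1 (SD, n = 12) in βTC3. Gcg was also high in βTC3 and uneven between arrays, at 8.79 ± 1.49 (SD, n = 12), while Ins2 read 4.31 ± 0.69 (SD, n = 14) in αTC1. The median of the mean levels of all genes was 4.89 in αTC1 and 4.98 in βTC3. Of 31 hepatocyte markers measured (secreted proteins, enzymes and transcription factors), 24 in αTC1 and 25 in βTC3 lay below that median. The 5 hepatocyte markers with the highest levels in either line were Ttr (11.4 in αTC1, 12.87 in βTC3), Serpina1a (6.71 and 9.76), Tat (9.45 and 3.84), Foxa2 (8.83 and 8.41) and Cebpb (8.49 and 7.41). Alb (albumin), chosen here after its values were seen, was at 3.03 and 2.94. The word liver is therefore used here for what the genes do, not for the cells. Of 15 markers of acinar, ductal, stromal and white blood cells, 13 in αTC1 and 15 in βTC3 were below the median of all genes.

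The members differed widely between the lines before any treatment. In DMSO at 24 h Cps1 read 11.52 (lowest), 11.76 (median) and 11.95 (highest) in the 14 αTC1 arrays, and 2.86, 3.45 and 4.06 in the 12 βTC3 arrays. Fbp1 read 8.14, 8.89 and 9.66 in αTC1 and 2.73, 3.23 and 3.75 in βTC3. Hsd11b1 read 7.02, 7.78 and 8.41 in αTC1 and 3.67, 4.15 and 4.46 in βTC3. For these 3 genes every αTC1 array was above every βTC3 array. In bulk RNA, fewer cells that express a gene and less of its RNA per cell cannot be told apart.

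Selenop was also higher in αTC1, at 3.52, 4.86 and 5.74 against 2.91, 3.19 and 3.56 in βTC3, but the ranges overlapped. Ugt1a6a went the other way, with 6.24, 7.22 and 7.83 in αTC1 and 7.42, 8.45 and 8.7 in βTC3, and overlapping ranges. Adh4 was low in both lines, at 2.61, 2.84 and 3.08 in αTC1 and 2.59, 2.77 and 3.13 in βTC3. Dpyd was low as well, at 2.55, 2.81 and 2.97 in αTC1 and 2.81, 3.3 and 3.64 in βTC3. At levels as low as those of Adh4, Dpyd and, in βTC3, Selenop, Fbp1 and Cps1, an array compresses differences. A fold change that starts there is likely to be understated, and a fall would be hard to see. The αTC1 level of Selenop was mid-range, with 51.7% of all probe sets below its mean.

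**Figure D1:**
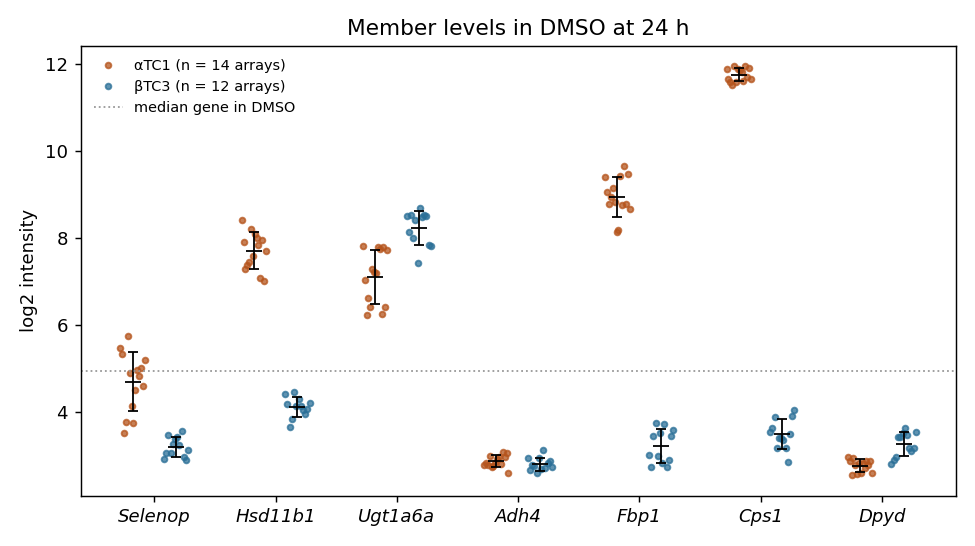
Log2 intensity of each member (x axis) in DMSO at 24 h, with a point for each of the 14 αTC1 and 12 βTC3 arrays, black bars at mean ± SD and a dotted line at the level of the median gene. Cps1, Fbp1 and Hsd11b1 form separate clouds in the 2 lines, Selenop and Ugt1a6a overlap, and Adh4 and Dpyd lie at the bottom of the scale in both.

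Part of the spread in DMSO went with the batches named in the sample titles. Between batches the mean DMSO level of Selenop in αTC1 at 24 h ran from 3.65 in batch 5 to 5.31 in batch 7, and batches held 84.1% of its sum of squares. The share was 93.8% for Fbp1, 86% for Ugt1a6a, 77.2% for Hsd11b1, 75.8% for Cps1, 64.3% for Adh4 and 32.1% for Dpyd in the same line. In βTC3 the shares ran from 57.3% for Cps1 to 96.4% for Fbp1. With so few arrays per batch some share falls between batches in any case, and its size was not computed. All fits below carry batch as a term.

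Time in DMSO alone went with small differences, given as a description because the members were chosen on DMSO levels. From 1 to 24 h in αTC1, Hsd11b1 went from 8.05 ± 0.32 to 7.71 ± 0.43 (SD, n = 14 each), a change of -0.34 (SE 0.1) on the log2 scale. Ugt1a6a went there from 7.51 ± 0.4 to 7.11 ± 0.62, a change of -0.4 (SE 0.1). In βTC3 Fbp1 went from 3.7 ± 0.52 to 3.22 ± 0.39 (SD, n = 12 each), a change of -0.46 (SE 0.11). The other members had changes from -0.1 to 0.08 in αTC1 and from -0.11 to 0.1 in βTC3.

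At 1 h none of the members passed the test under any treatment. For the hydroxamic acids limma called 0 of the 7 members in αTC1 and in βTC3, with changes from -0.12 to 0.06 and from -0.24 to 0.02. At an unadjusted p under 0.05 there was 0 in αTC1 and 1 in βTC3 (Dpyd, a change of -0.16, SE 0.07, limma adjusted p = 0.462). The ortho-amino anilides also gave 0 calls in each line and 0 at an unadjusted p under 0.05, with changes from -0.15 to 0.11 and from -0.21 to 0.11. Over all genes the shares called at 1 h were 0.593% and 0.906% for the hydroxamic acids and 0.0169% and 0.0254% for the anilides, in αTC1 and βTC3. Single compounds gave 0 called among 203 pairs of member and compound in each line (limma), where 0.0327% and 0.0943% of all pairs of gene and compound were called. Unadjusted p-values under 0.05 numbered 8 in αTC1 and 15 in βTC3, where 10.15 of the 203 pairs in each line would be expected without any change. Hsd11b1 under ITF-2357 in βTC3 had a change of -0.61 (SE 0.22, limma adjusted p = 0.294). It was called when replicate 1 was left out (-0.88, SE 0.18, limma adjusted p = 0.0134), and so was Ugt1a6a under CRA-024781 in βTC3 when replicate 3 was left out (-0.84, SE 0.23, limma adjusted p = 0.0228).

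By 6 h and more so by 24 h the members had moved, mostly under histone deacetylase inhibitors. Of 56 mean changes (7 genes, 2 classes, 2 lines, and 6 or 24 h), 16 were at least 2-fold, 12 of them higher and 4 lower than DMSO. Over all genes 2.61% of such changes were at least 2-fold higher and 1.71% at least 2-fold lower, and since the members were chosen on these changes nothing is read from the difference. Leaving out genes below the median level, which drops Selenop, Adh4 and Dpyd, gives 6. By the limma call, which the related genes below are counted with, both classes moved much of the genome at these times. For the hydroxamic acids limma called 26.6% of all genes higher and 24.3% lower at 6 h in αTC1, and 26.1% higher and 24.3% lower at 24 h. In βTC3 these shares were 26.2% and 24% at 6 h and 22.5% and 20.7% at 24 h. Under the anilides they were 12.7% higher and 13.9% lower at 6 h and 21.2% and 22.5% at 24 h in αTC1, and 12.9% and 16.5% at 6 h and 22% and 21.7% at 24 h in βTC3.

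Selenop, the selenium carrier, had the largest rise of the 7 genes. In αTC1 at 24 h CI-994 took it to 10.29 and 10.54 on its 2 arrays, MS-275 to 10.18, 10.49 and 10.01, and MGCD-0103 to 9.09, 9.73 and 10.07, where the highest of 14 DMSO arrays was at 5.74. All 8 arrays of the anilides were above every DMSO array. The mean class change was 5.63 (SE 0.21), a 49.5-fold rise. Under the hydroxamic acids 21 of 22 arrays were above every DMSO array, the range was 5.23 to 9.91 with a median of 8.65, and the class change was 3.5 (SE 0.15), or 11.3-fold.

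Among the hydroxamic acids trichostatin A had the highest Selenop change in αTC1 at 24 h, 4.53 (SE 0.28), with arrays at 9.13, 8.7 and 8.92. Scriptaid had the lowest, 1.48 (SE 0.34), with arrays at 5.95 and 5.23 that overlapped DMSO. SAHA reached 3.58 (SE 0.34) and LBH-589 3.69 (SE 0.28). HC-toxin gave 4.05 (SE 0.28) and apicidin 2.74 (SE 0.29). The 3 deacetylase inhibitors of a named class that shared a dose of 10 µM were ITF-2357 at 3.36 (SE 0.28), pyroxamide at 3.71 (SE 0.29) and CI-994 at 5.84 (SE 0.34), and no test was made because Selenop was chosen for such differences.

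The rise was already present at 6 h in αTC1, where CI-994 gave 8.06, 7.22 and 7.45, all above the highest DMSO array at 5.49 (change 3.52, SE 0.22). The class changes at 6 h were 2.52 (SE 0.15) for the anilides and 1.72 (SE 0.11) for the hydroxamic acids. Some code name compounds were late. BRD5298 went from 0.72 (SE 0.22) at 6 h to 3.08 (SE 0.29) at 24 h, BRD6929 from 0.34 (SE 0.22) to 2.55 (SE 0.29), and BRD9773 from 0.24 (SE 0.22) to 2.85 (SE 0.29). All 9 arrays of these 3 compounds at 24 h were above every DMSO array.

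Outside the deacetylase inhibitors, 5-azadeoxycytidine, a nucleoside that traps DNA methyltransferases, gave Selenop levels of 6.56, 6.83 and 6.41 in αTC1 at 24 h, all above DMSO, with a change of 1.55 (SE 0.29). At 6 h it was 0.33 (SE 0.21), and in βTC3 at 24 h 0.3 (SE 0.24). Zebuarine and RG-0108, the other inhibitors of DNA methylation, gave 0.16 and 0.11 in αTC1 at 24 h. The methyltransferase inhibitors chaetocin and BIX-01294 gave -0.5 (SE 0.26) and -0.1 (SE 0.28), and their arrays overlapped DMSO. In all, Selenop was at least 2-fold higher under 23 of 29 compounds in αTC1 at 24 h, a count that 0.0169% of genes reached.

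In βTC3 Selenop started lower and rose less. At 24 h the 9 anilide arrays ran from 4.78 to 7.19 (median 6.53), all above the highest of 12 DMSO arrays at 3.56, and the class change was 3.38 (SE 0.16). CI-994 was highest at 4.09 (SE 0.24). Under the hydroxamic acids 20 of 24 arrays were above DMSO, with a class change of 1.71 (SE 0.13) and single changes from 0.35 (SE 0.24) for scriptaid to 3.06 (SE 0.24) for CRA-024781. Replicates spread widely here, as for CRA-024781 at 7.41, 7.02 and 4.89. At 6 h the class changes were only 0.55 (SE 0.08) and 0.47 (SE 0.11), for hydroxamic acids and anilides. The count of compounds with a 2-fold rise at 24 h was 10, which 1.21% of genes reached. Within single batches at 24 h the class differences ran from 3.15 to 4.09 over 7 batches for the hydroxamic acids and from 4.91 to 6.31 over 3 batches for the anilides in αTC1, and from 0.85 to 3.05 over 7 batches and 2.72 to 3.59 over 4 batches in βTC3.

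**Figure D2:**
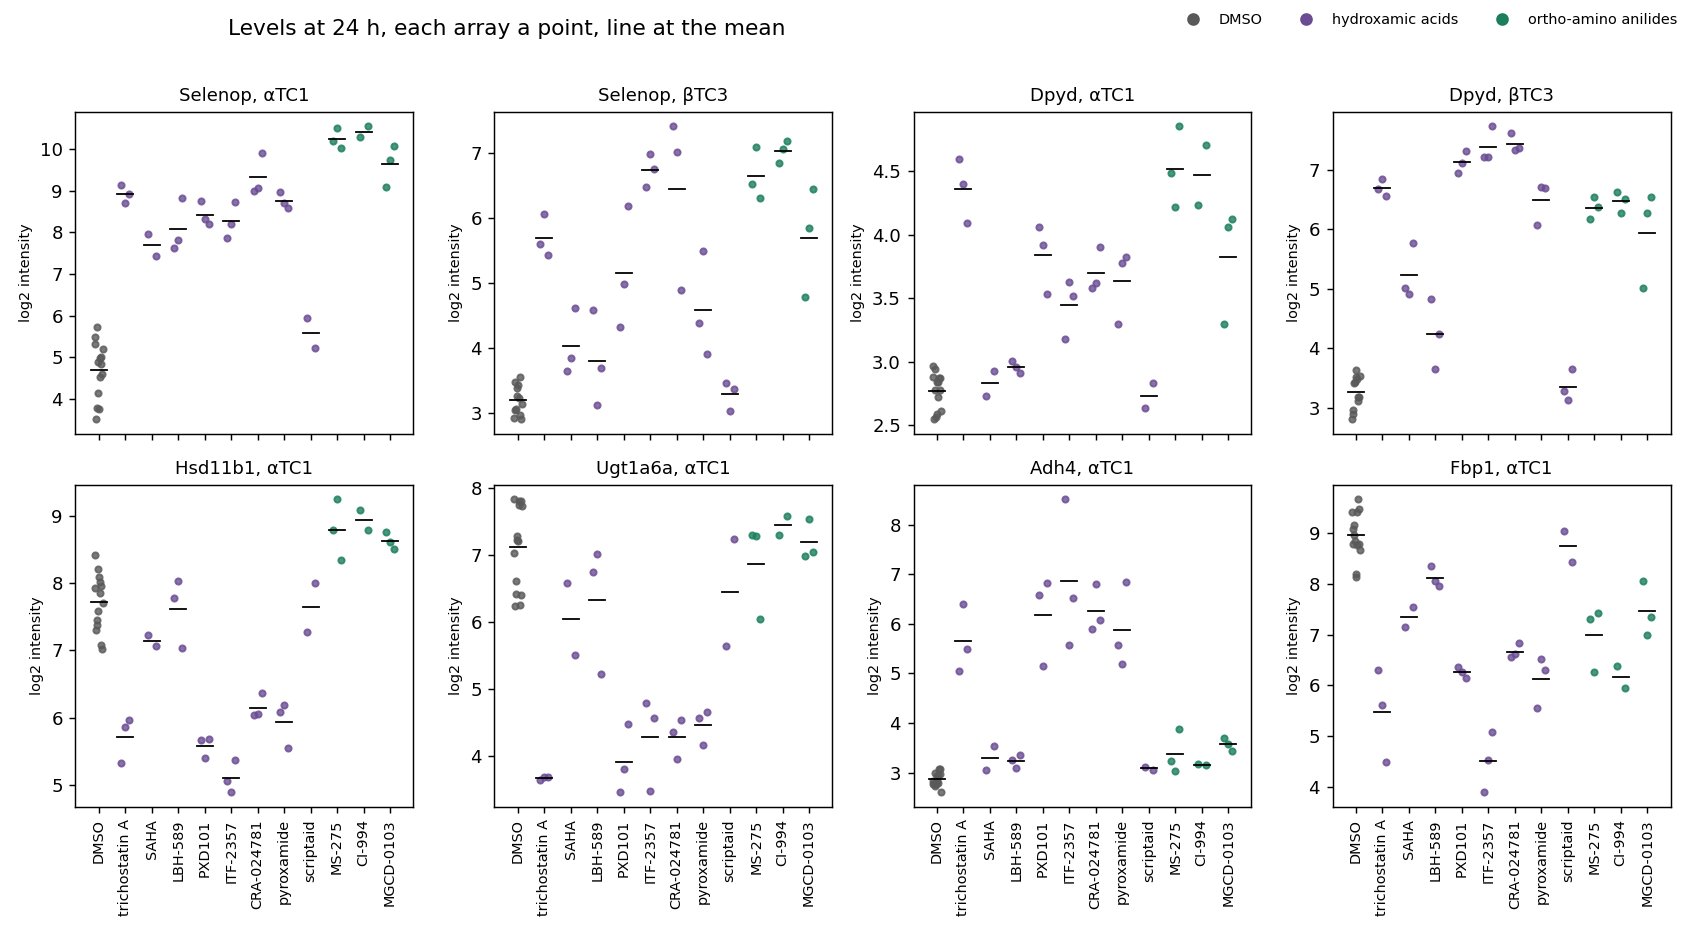
Log2 intensity at 24 h on each array (points) with the group mean (line), for DMSO (grey), the 8 hydroxamic acids (purple) and the 3 ortho-amino anilides (green), in 8 panels of gene and line with separate y axes. Selenop under the anilides lies above 9 in αTC1, and trichostatin A, PXD101, ITF-2357, CRA-024781 and pyroxamide stand apart from SAHA, LBH-589 and scriptaid for Hsd11b1, Ugt1a6a, Adh4 and Fbp1.

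Hsd11b1, the glucocorticoid-activating enzyme, moved in opposite directions under the classes in αTC1. At 24 h the anilides took it up, to 8.78, 9.24 and 8.34 under MS-275, 9.08 and 8.78 under CI-994, and 8.76, 8.61 and 8.5 under MGCD-0103. Of these 8 arrays 7 were above the highest DMSO array at 8.41, and the class change was 1.15 (SE 0.14). The hydroxamic acids took it down by 1.41 (SE 0.1) on average, with 15 of 22 arrays below the lowest DMSO array at 7.02. That fall came from 5 compounds. ITF-2357 gave 5.06, 4.9 and 5.37 (change -2.61, SE 0.19), and PXD101, trichostatin A, pyroxamide and CRA-024781 gave -2.34, -2, -1.98 and -1.77. LBH-589 and scriptaid gave 0 and -0.03 (SE 0.19 and 0.22), and SAHA -0.52 (SE 0.22).

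The opposite directions were smaller at 6 h, -0.66 (SE 0.08) for the hydroxamic acids and 0.28 (SE 0.11) for the anilides. Apicidin lowered Hsd11b1 by a log2 change of -1.16 (SE 0.19) at 24 h, whereas HC-toxin read 0.29 (SE 0.18). The code name compounds BRD-K17311666 and BRD-K22912318 gave -1.92 and -1.77 (SE 0.19 each), and their arrays did not overlap DMSO. In all, 9 of 29 compounds lowered Hsd11b1 at least 2-fold at 24 h, a count that 2.17% of genes reached. Within batches the class differences in αTC1 ran from -2.45 to -0.35 for the hydroxamic acids and from 0.97 to 1.21 for the anilides. For the hydroxamic acids they were -0.78 to -0.35 in batches 4 to 6 and -2.45 to -1.99 in batches 7 to 10. In βTC3, where the level was near 4.12, no compound changed Hsd11b1 2-fold, and changes at 24 h ran from -0.38 for ITF-2357 to 0.39 for BRD-K22912318.

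Ugt1a6a, the phenol-conjugating enzyme, followed Hsd11b1 in αTC1 at 24 h in its falls but not in its rises under the anilides. In αTC1 at 24 h trichostatin A brought it to 3.65, 3.7 and 3.69, and PXD101 to 3.47, 3.81 and 4.49, where the lowest of 14 DMSO arrays was at 6.24. PXD101 had the largest fall, -3.51 (SE 0.29), or 11.4-fold, and the class change was -2.21 (SE 0.15), with 18 of 22 arrays below every DMSO array. SAHA, LBH-589 and scriptaid gave -0.86, -0.51 and -0.46 and overlapped DMSO. Under the anilides the change was 0.9 (SE 0.13) at 6 h, with 7 of 9 arrays above every DMSO array, and 0.28 (SE 0.21) at 24 h.

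CI-994 raised Ugt1a6a to 8.53, 7.98 and 8.93 at 6 h in αTC1, above the highest DMSO array at 7.97 (change 1.1, SE 0.18), and pyroxamide lowered it to 6.18, 6.39 and 6.65 at that time (-1.28, SE 0.18). BRD8451 gave the highest level at 24 h, 8.64, 7.89 and 8.42, all above DMSO (0.89, SE 0.29). At least 2-fold falls occurred under 8 of 29 compounds at 24 h in αTC1, a count that 2.55% of genes reached. Within batches the hydroxamic class difference in αTC1 ran from -3.48 to -1.03. In βTC3 the falls of at least 2-fold were those of ITF-2357 (6.7, 6.9 and 6.9, change -1.73, SE 0.23), PXD101 (-1.43, SE 0.21) and CRA-024781 (-1.09, SE 0.21), and the anilides gave 0.63 (SE 0.14) with 7 of 9 arrays above the highest DMSO array at 8.7. The second Ugt1a6a probe set gave class changes of -1.46 (SE 0.12) and 0.04 (SE 0.16) in αTC1 and -0.66 (SE 0.1) and 0.71 (SE 0.13) in βTC3 at 24 h. Genes of the Ugt1a cluster share their last exons, so these probe sets may also read other members of the cluster, and which one changed is uncertain. The probe set named Ugt1a9 had a Pearson r of 0.97 with Ugt1a6a over the 29 compounds in each line.

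Adh4, an alcohol and retinol dehydrogenase, went from a very low to a clear signal under 5 hydroxamic acids in αTC1. At 24 h ITF-2357 gave 8.51, 5.57 and 6.53, PXD101 6.58, 5.16 and 6.82, and CRA-024781 5.9, 6.8 and 6.07. Pyroxamide gave 5.58, 5.2 and 6.84, and trichostatin A 5.04, 6.41 and 5.5. All 15 of these arrays were above the highest DMSO array at 3.08. Their changes ran from 2.92 (SE 0.27) for trichostatin A to 4.05 (SE 0.27) for ITF-2357, a 16.6-fold rise. SAHA, LBH-589 and scriptaid gave 0.41, 0.31 and 0.21 (SE 0.32, 0.27 and 0.32).

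The class change of 2.3 (SE 0.14) for Adh4 thus joins unlike compounds. Within single batches the class difference ran from 0.63 to 1.2 in batches 4 to 6 and from 2.62 to 5.44 in batches 7 to 10. Batches held from 1 to 5 arrays of the class, so no batch held all 8 compounds. What compound and batch each add to that split was not tested. The anilides gave 0.46 (SE 0.2), with 7 of their 8 arrays above every DMSO array, and 0.71 without replicate 2. Apicidin (1.26, SE 0.27), HC-toxin (1.16, SE 0.27), BRD-K22912318 (1.51, SE 0.27) and BRD-K17311666 (1.09, SE 0.27) made up the 9 compounds with a 2-fold rise, a count that 2.87% of genes reached. At 6 h in αTC1 the highest change was 0.48, for CI-994, and in βTC3 no change passed 0.21 at 6 h or 0.18 at 24 h.

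Fbp1, the gluconeogenic phosphatase, fell furthest of the members. In αTC1 at 24 h ITF-2357 took it to 3.9, 4.54 and 5.08, against a lowest DMSO array of 8.14, a change of -4.63 (SE 0.2) or 24.8-fold. Trichostatin A gave 6.31, 5.62 and 4.5 (-3.33, SE 0.2), and pyroxamide, PXD101 and CRA-024781 gave -3.19, -3.05 and -2.65. SAHA gave 7.14 and 7.54 (-1.22, SE 0.24), below every DMSO array, while LBH-589 (-0.43, SE 0.2) and scriptaid (0.17, SE 0.24) overlapped DMSO. The class change was -2.29 (SE 0.11), with 19 of 22 arrays below every DMSO array. Falls of at least 2-fold occurred under 15 of 29 compounds, a count that 0.551% of genes reached, and BRD5298 (-1.36), BRD6929 (-1.02), chaetocin (-1.31) and BIX-01294 (-1.1) were among them.

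Under the anilides Fbp1 changed direction with time. At 6 h in αTC1 its change was 0.6 (SE 0.1), with 6 of 9 arrays above every DMSO array, and at 24 h it was -1.62 (SE 0.15), with all 8 arrays below every DMSO array. CI-994 read 9.8, 9.76 and 8.98 at 6 h and 6.38 and 5.94 at 24 h. In βTC3, where Fbp1 was low, the anilides gave 1.14 (SE 0.17) at 6 h, with 6 of 9 arrays above every DMSO array, and CI-994 read 6.01, 5.34 and 4.11 against a highest DMSO array of 4.4. The anilide class within batches at 24 h ran from -1.86 to -1.13 in αTC1 and from -0.43 to 0.31 in βTC3. Without the batch term the αTC1 value at 24 h was -2.08.

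The histone lysine methyltransferase inhibitors gave Fbp1 different signs in the lines. Chaetocin at 24 h gave 8.31, 7.54, 7.33 and 6.78 in αTC1 (-1.31, SE 0.19) and 4.45, 5.11 and 5.4 in βTC3 (1.8, SE 0.17), where the highest DMSO array was at 3.75. BIX-01294 at 6 h gave 8.09, 9.26 and 8.4 in αTC1 (-0.24, SE 0.13), overlapping DMSO, and 6, 4.83 and 4.9 in βTC3 (1.29, SE 0.23), above every DMSO array. By 24 h the βTC3 value of BIX-01294 was 0.32 (SE 0.16). The hydroxamic acids lowered Fbp1 in βTC3 at 6 h by a change of -0.6 (SE 0.13) and read -0.13 (SE 0.09) at 24 h.

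**Figure D3:**
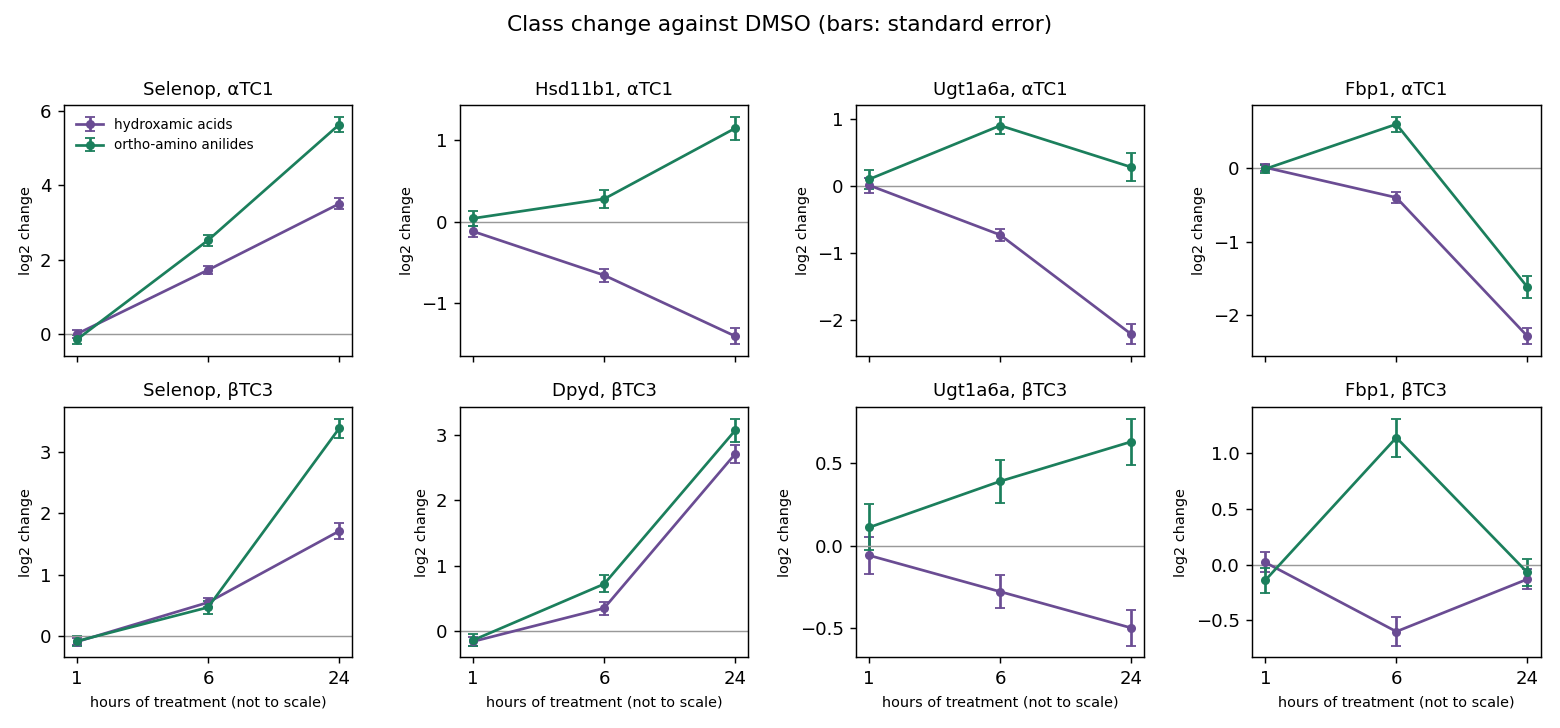
Class change against DMSO (y axis, log2, bars at ± SE, separate scales) at 1, 6 and 24 h (x axis, not to scale) for the hydroxamic acids (purple) and ortho-amino anilides (green) in 8 panels of gene and line. Hsd11b1 and Ugt1a6a diverge between the classes in αTC1, and Fbp1 under the anilides is above 0 at 6 h and at -1.62 in αTC1 by 24 h.

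Cps1, the urea cycle entry enzyme, moved little although its levels differed most between the lines. In αTC1 at 24 h the class changes were 0 (SE 0.08) for the hydroxamic acids (0.16 without ITF-2357) and 0.23 (SE 0.11) for the anilides. Its only 2-fold change there was under ITF-2357 (10.56, 9.75 and 11.74, change -1.11, SE 0.14), and 1 of the 3 arrays lay within the DMSO range. Chaetocin gave 10.84, 11.1, 10.92 and 10.9, all below the lowest DMSO array at 11.52 (-0.85, SE 0.13). HC-toxin gave the highest levels, 12.29, 12.2 and 12.16 (0.51, SE 0.14). No compound brought Cps1 to its αTC1 level in βTC3, where changes at 24 h ran from -0.44 for chaetocin to 0.84 for BRD5298, the latter from arrays at 5.91, 4.18 and 3.44.

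Dpyd, the pyrimidine-degrading enzyme, was the member that moved most widely in βTC3. At 24 h CRA-024781 gave 7.62, 7.33 and 7.36, ITF-2357 7.21, 7.22 and 7.73, and PXD101 6.94, 7.12 and 7.31, where the highest of 12 DMSO arrays was at 3.64. CRA-024781 had the largest change, 4.04 (SE 0.26), or 16.4-fold. The class changes were 2.71 (SE 0.14) for the hydroxamic acids, with 22 of 24 arrays above every DMSO array, and 3.07 (SE 0.18) for the anilides, with all 9 arrays above. Scriptaid gave 3.29, 3.13 and 3.65 (0.22, SE 0.26). Apicidin reached 3.45 (SE 0.26), HC-toxin 0.85 (SE 0.25) and chaetocin 1.8 (SE 0.26).

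Dpyd rose at least 2-fold under 20 of 29 compounds in βTC3 at 24 h, a count that 0.0678% of genes reached. At 6 h in that line 2 compounds passed 2-fold, chaetocin at 4.21, 3.82 and 4.8 (1.38, SE 0.18) and CI-994 at 4.1, 3.64 and 4.02 (1.02, SE 0.18), all above the highest DMSO array at 3.32. In αTC1 the rises were smaller and came at 24 h: 1.57 (SE 0.1) for the anilides, with all 8 arrays above DMSO, 0.67 (SE 0.07) for the hydroxamic acids, and 4 compounds at least 2-fold, a count that 6.83% of genes reached. MS-275 gave 4.48, 4.22 and 4.85 (1.82, SE 0.14) and trichostatin A 4.59, 4.4 and 4.09 (1.62, SE 0.13). The second Dpyd probe set, lower still, gave 0.98 (SE 0.1) and 1.11 (SE 0.13) under the classes in βTC3 at 24 h, and 0.07 (SE 0.04) and 0.27 (SE 0.06) in αTC1. With the mean of both probe sets the αTC1 class changes were 0.37 and 0.92, and the βTC3 ones 1.85 and 2.09. Within batches at 24 h the βTC3 class differences of the first probe set ran from 1.33 to 4.16 for the hydroxamic acids and from 2.33 to 3.38 for the anilides.

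Across compounds several members moved together in αTC1 at 24 h. All correlations here are over the 29 changes, which share the same DMSO arrays, and they describe these changes without a test. Hsd11b1 and Ugt1a6a went together (Pearson r 0.89, Spearman rho 0.87), and both ran against Adh4 (r -0.78 and -0.91). Adh4 ran against Fbp1 as well (r -0.86, rho -0.6). Selenop went with Dpyd (r 0.77, rho 0.81), while its r with Hsd11b1 was 0.01. Selenop and Dpyd went together in βTC3 too (r 0.78, rho 0.86). Between the lines, the same gene's changes at 24 h correlated for Selenop (r 0.81), Ugt1a6a (0.8) and Dpyd (0.66), and less for Hsd11b1 (0.26), Fbp1 (0.22), Adh4 (0.02) and Cps1 (-0.19). In βTC3 the mean DMSO levels of these last genes were 4.12, 3.22, 2.8 and 3.49, where a fall would be hard to see. Adh4, however, was about as low in αTC1, at 2.87. Its changes at 24 h ran from 0.04 to 4.05 in αTC1 and from -0.1 to 0.18 in βTC3. Whether the lines respond differently was not tested.

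The genes most like each member were taken as the 3 with the highest Pearson r over the 29 changes at 24 h, among the 1171 genes in αTC1 and 727 in βTC3 whose changes had an SD of at least 0.5. For Selenop in αTC1 these were Cast (the calpain inhibitor calpastatin, r 0.96), Acadl (a mitochondrial fatty acid dehydrogenase, 0.95) and Fkbp9 (0.95), and in βTC3 Plaat3, Hba-a1 (an alpha globin) and Lpl (lipoprotein lipase), each at 0.94. Hsd11b1 was most like Timp2 (a metalloproteinase inhibitor, 0.94), Serping1 (0.91) and S100a4 (0.9). Ugt1a6a was most like Ugt1a9 (0.97), Krt7 (a keratin, 0.94) and Srsf3 (a splicing factor, 0.94) in αTC1, and Ugt1a9 (0.97), Ttyh1 (0.89) and Nxph1 (0.88) in βTC3. Adh4 was most like Cyp46a1 (a cholesterol hydroxylase, 0.95), Mfsd3 and Etfbkmt (0.93 each), and Fbp1 like Fhl1 (0.96), Tagln3 and Sytl2 (0.95 each). Dpyd was most like Tmeff2, Rhbdl3 and Wfdc12 (0.94 each) in αTC1, and Caprin2, Pter and Blvrb (biliverdin reductase B) at 0.96 each in βTC3.

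Other genes of the same pathways were tested as 7 lists with 122 genes, of which 94 were measured. With the hydroxamic acids at 24 h limma called 29 of 94 higher (30.9%) and 23 lower (24.5%) in αTC1, and 32 higher (34%) and 18 lower (19.1%) in βTC3. Under the anilides it called 30 higher (31.9%) and 14 lower (14.9%) in αTC1, and 36 higher (38.3%) and 13 lower (13.8%) in βTC3. The shares over all genes are those given above for these comparisons, between 20.7% and 26.1% in each direction at 24 h, and the counts by list below are at 24 h unless a time is named. The median change of the 94 genes was 0.01 and 0.02 in αTC1 and 0.01 and 0.06 in βTC3, in that order of classes, against medians over all genes of 0, -0.01, 0.01 and -0.02. At 6 h the counts were 30 higher and 21 lower (hydroxamic acids; 25 and 27 with arrays centred on their medians) and 26 and 9 (anilides) in αTC1, and 31 and 15, then 25 and 8, in βTC3. Among the anilide counts of lower genes, 1 replicate decides some: 14 becomes 9 without replicate 2 at 24 h in αTC1, and 8 becomes 5 without replicate 2, or without CI-994, at 6 h in βTC3.

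Selenium handling, the list around Selenop, held falls as well as rises. Of 23 genes measured, the hydroxamic acids gave 7 higher and 9 lower in αTC1 and 6 higher and 11 lower in βTC3 at 24 h, and the anilides 6 and 6, then 8 and 8. Txnrd2 (mitochondrial thioredoxin reductase) fell in all 4 comparisons, from a change of -1.59 (SE 0.12, limma adjusted p = 1.28e-18) under the anilides in αTC1 to -1.16 (SE 0.09, adjusted p = 2.41e-18) under the anilides in βTC3. Scly (selenocysteine lyase, which frees selenium from selenocysteine) fell (-1.16, SE 0.12, adjusted p = 2.3e-13, and -1.11, SE 0.09, adjusted p = 2.54e-17) under the anilides. Msrb1 (a methionine sulfoxide reductase) rose by 1.54 (SE 0.09, adjusted p = 6.94e-24) in αTC1 under the hydroxamic acids and Selenom by 1.3 (SE 0.09, adjusted p = 1.88e-20). Selenon fell there (-1.29, adjusted p = 4.11e-21), and Dio1 (a thyroid hormone deiodinase) fell in βTC3 (-1.41, SE 0.09, adjusted p = 5.64e-24).

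Glucocorticoid genes, the list around Hsd11b1, differed by line and time. At 24 h under the anilides 4 of 10 were higher and 0 lower in αTC1, and 6 higher and 0 lower in βTC3, where 21.2% and 22% of all genes were higher. Under the hydroxamic acids 2 were higher and 1 lower in αTC1, and 7 higher and 0 lower in βTC3, where 26.1% and 22.5% of all genes were higher. At 6 h the hydroxamic acids gave 3 higher and 5 lower in αTC1 and 6 and 2 in βTC3, and the anilides 3 and 2, then 4 and 1. H6pd, which supplies the cofactor that Hsd11b1 uses, rose under the anilides in αTC1 (0.91, SE 0.12, limma adjusted p = 2.75e-09) and βTC3 (1.03, SE 0.09, adjusted p = 6.41e-16). Fkbp5, a receptor cochaperone, rose in αTC1 under the anilides (1.19, SE 0.1, adjusted p = 1.26e-16) and the hydroxamic acids (0.67, SE 0.07, adjusted p = 1.24e-12). Tsc22d3 rose in βTC3 under the anilides (1.25, SE 0.13, adjusted p = 1.98e-13) and fell in αTC1 under the hydroxamic acids (-0.44, adjusted p = 1.58e-05). Hsd11b2, the enzyme of the reverse reaction, rose to a mean of 3.75 in αTC1 under the anilides (0.66, adjusted p = 1.27e-07).

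Detoxification genes around Ugt1a6a included few that were called. Of 17 measured, the hydroxamic acids gave 4 higher and 2 lower in αTC1 and 3 higher and 3 lower in βTC3, and the anilides 5 and 0, then 4 and 1. Ephx1 (epoxide hydrolase) rose in all 4 comparisons, from 1.13 (SE 0.12, limma adjusted p = 1.43e-12) in αTC1 under the hydroxamic acids to 2.02 (SE 0.12, adjusted p = 6.26e-24) in βTC3 under the anilides. Ugp2, which makes the sugar donor precursor for glucuronidation, also rose in all 4, from 0.6 (SE 0.05, adjusted p = 2.13e-18) to 1.02 (SE 0.08, adjusted p = 2.46e-17). Ahr, the dioxin receptor, rose in βTC3 (0.95, adjusted p = 7.58e-14, and 1.93, adjusted p = 1.33e-22). Nqo1 rose in αTC1 under the anilides (1.18, SE 0.12, adjusted p = 5.17e-14). Ugt1a9 fell under the hydroxamic acids in αTC1 (-1.72, SE 0.12, adjusted p = 2.1e-21) and βTC3 (-0.55, SE 0.07, adjusted p = 3.01e-11). It rose in βTC3 under the anilides (0.58, SE 0.09, adjusted p = 2.3e-08). Its probe set may read the same cluster transcripts as those of Ugt1a6a, so Ugt1a9 may not be a separate gene in these counts.

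Alcohol, aldehyde and retinol genes, the list around Adh4, held several rises of at least 2-fold. Of 19 measured, the hydroxamic acids gave 8 higher and 4 lower in αTC1 and 6 higher and 2 lower in βTC3, and the anilides 9 and 3, then 8 and 2. Adh1, the classic liver alcohol dehydrogenase, rose in αTC1 under the hydroxamic acids (2.13, SE 0.14, limma adjusted p = 5.65e-22) and the anilides (2.97, SE 0.2, adjusted p = 1.28e-21), from 3.14 in DMSO to means of 5.41 and 6.06. Aldh1a1, which makes retinoic acid, rose in αTC1 (2.11, SE 0.09, adjusted p = 4.7e-32, and 2.17, SE 0.12, adjusted p = 9.91e-25). Aldh1a7 rose there by 2.22 (SE 0.15, adjusted p = 4.1e-21) under the anilides. Aldh2 (mitochondrial acetaldehyde removal) rose in βTC3 by 2.26 (SE 0.1, adjusted p = 1.13e-31) under the hydroxamic acids and 1.74 (SE 0.13, adjusted p = 8.71e-20) under the anilides.

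Gluconeogenic and sugar genes around Fbp1 split by gene. Of 11 measured, the hydroxamic acids gave 3 higher and 2 lower in each line at 24 h, and the anilides 2 and 3 in αTC1 and 4 and 2 in βTC3. Pck2 (mitochondrial phosphoenolpyruvate carboxykinase) fell in all 4 comparisons, most under the hydroxamic acids in αTC1 (-1.78, SE 0.07, limma adjusted p = 3.06e-32). Slc37a4, the glucose phosphate transporter, fell (-0.92, SE 0.12, adjusted p = 9.91e-10, and -0.91, SE 0.09, adjusted p = 3.51e-13) under the anilides. Pcx (pyruvate carboxylase) rose under the hydroxamic acids (0.89, adjusted p = 1.59e-21, and 0.9, adjusted p = 6.13e-19). Khk (fructokinase) and Pygl (liver glycogen phosphorylase) rose in βTC3 under the anilides by 1.39 (SE 0.08, adjusted p = 3.45e-25) and 1.98 (SE 0.14, adjusted p = 6.04e-21).

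Urea cycle genes around Cps1 were led by the arginases, which hydrolyse arginine. Of 10 measured, the hydroxamic acids gave 4 higher and 4 lower in αTC1 and 6 and 0 in βTC3, and the anilides 3 and 2, then 5 and 0. Arg2, the mitochondrial form, rose in all 4 comparisons, by 2.29 (SE 0.1, limma adjusted p = 1.73e-31) and 2.9 (SE 0.14, adjusted p = 1.07e-28) in αTC1 and by 1.88 (SE 0.11, adjusted p = 3.62e-25) and 2.41 (SE 0.14, adjusted p = 6.59e-25) in βTC3. Arg1, the liver form, fell in αTC1 (-1.81, SE 0.11, adjusted p = 1.92e-23, and -0.54, SE 0.15, adjusted p = 0.00259). Asl (argininosuccinate lyase) rose in βTC3 under the hydroxamic acids (0.72, SE 0.07, adjusted p = 7.92e-15), and Ass1 fell in αTC1 (-0.49, SE 0.09, adjusted p = 3.82e-06).

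Pyrimidine breakdown, the list around Dpyd, had only 4 genes measured, with 1 called higher in each comparison and 1 lower under the hydroxamic acids in αTC1. Upp1 (uridine phosphorylase) fell in αTC1 under the hydroxamic acids (-1.3, SE 0.08, limma adjusted p = 4.39e-22) and rose in βTC3 (0.54, SE 0.08, adjusted p = 8.46e-09, and 1.34, SE 0.1, adjusted p = 3.01e-19). Upb1, the last enzyme of the path, rose in αTC1 (0.43, adjusted p = 2e-05, and 0.55, adjusted p = 0.000118).

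**Figure D4:**
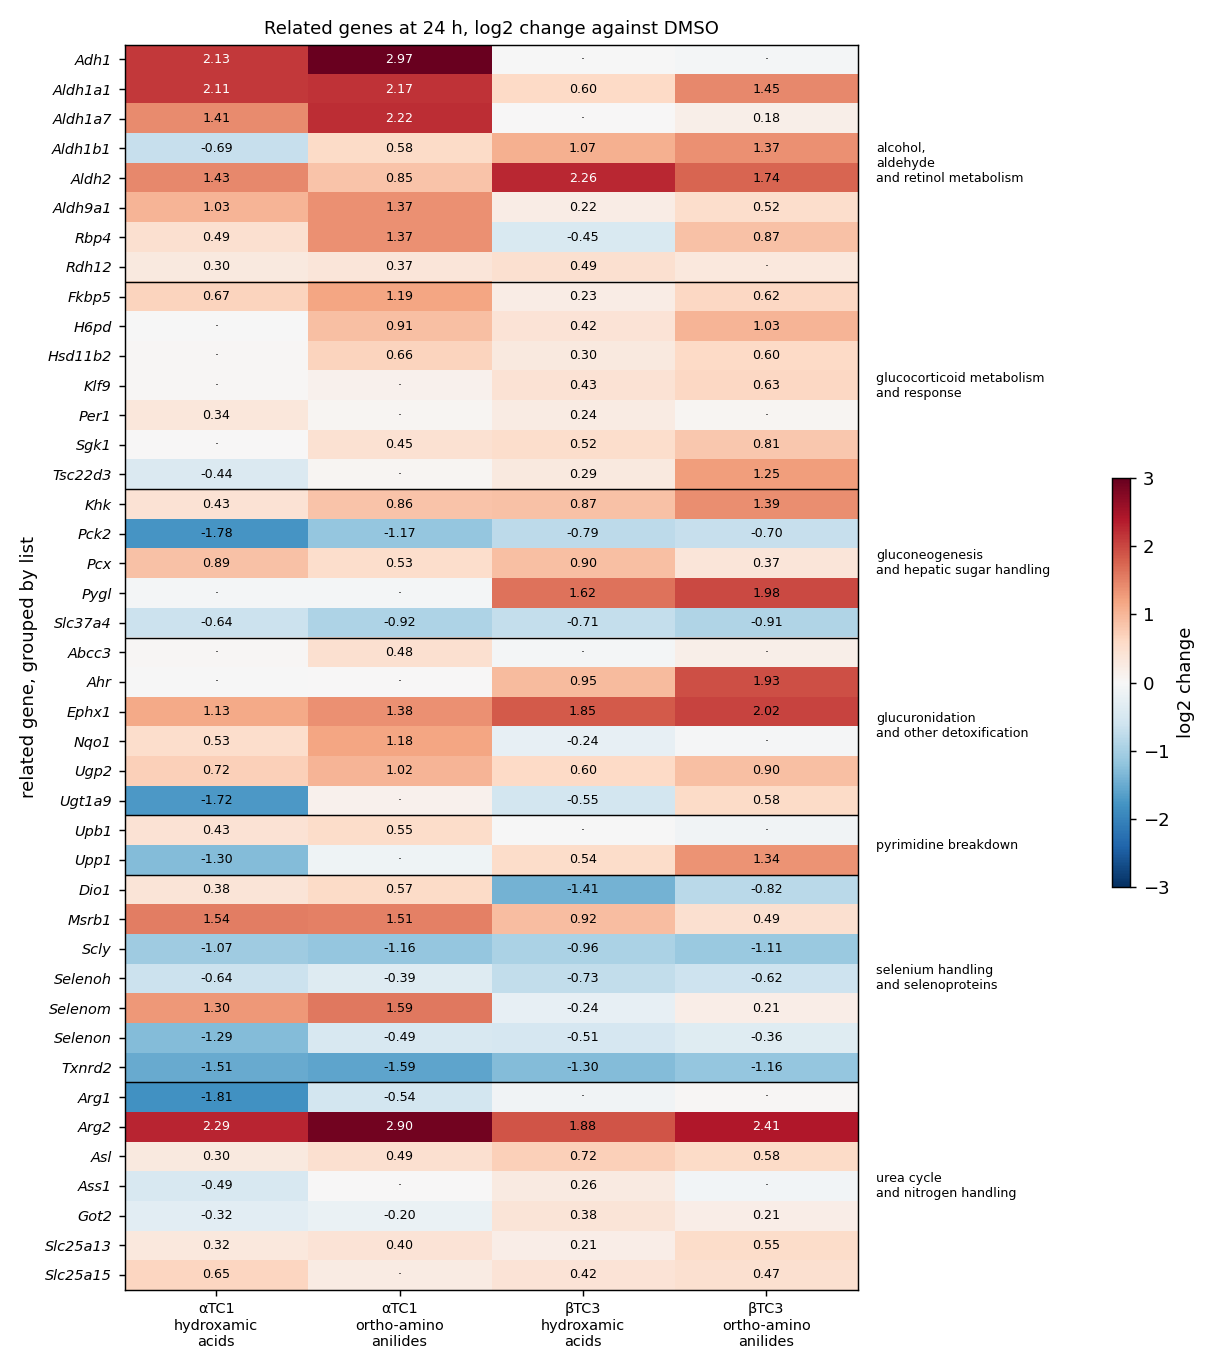
Change at 24 h against DMSO (log2, colour and printed value) of the related genes named by the rule, in rows grouped by list, under each class in each line (columns), with a dot where limma did not call the gene. Arg2, Ephx1 and Ugp2 are red and Txnrd2, Scly and Pck2 are blue in all 4 columns, while Adh1 is red in αTC1 alone.

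Markers of the lines and of other cell types moved with the same treatments, and those named here beyond Tat, Ttr and Serpina1a were chosen after their values were seen. With the hydroxamic acids at 24 h in αTC1 the alpha cell genes Irx1 and Irx2 fell (-1.23, limma adjusted p = 8.59e-21, and -1.14, adjusted p = 3.87e-24) while Gcg did not change detectably (0.08, adjusted p = 0.291), and in βTC3 Pdx1 fell (-1.06, adjusted p = 5.97e-22). Of 4 alpha cell markers measured, 0 were called higher and 2 lower in αTC1 under this class. Of 4 beta cell markers, 0 were higher and 3 lower in βTC3, and Ins2 was not called (-0.01, adjusted p = 0.895). Under the anilides Gcg rose in αTC1 (0.52, adjusted p = 9.94e-08) and βTC3 (1.21, adjusted p = 3.53e-12). Of 15 acinar, ductal, stromal and white blood cell markers, 6 were higher and 2 lower in αTC1 under the hydroxamic acids and 4 higher and 1 lower under the anilides, and in βTC3 2 and 1, then 1 and 1. Most stayed at low levels. The duct gene Krt7 fell in αTC1 under the hydroxamic acids (-1.85, limma adjusted p = 5.77e-30). The other duct genes measured, Krt19 and Sox9, rose there (0.24, adjusted p = 6.5e-05, and 0.19, adjusted p = 0.00073). Over all genes in αTC1 limma called 26.1% higher and 24.3% lower under the hydroxamic acids, and 21.2% and 22.5% under the anilides. In βTC3 these shares were 22.5% and 20.7%, then 22% and 21.7%, and no marker count was tested against them. Of the 31 hepatocyte markers, limma called 3 higher and 7 lower in αTC1 under the hydroxamic acids and 5 higher and 3 lower under the anilides, and in βTC3 1 and 8, then 6 and 4. The 5 that rose under the anilides in αTC1 were Alb (1.5, adjusted p = 9.98e-13, from 3.03), Serpina1a (0.99, adjusted p = 1.99e-05), Tdo2 (0.44, adjusted p = 3.64e-05), Ttr (0.42, adjusted p = 4.76e-05) and Foxa1 (0.26, adjusted p = 0.00927). The 3 that fell were Hal (-1.87, adjusted p = 2.33e-13), Tat (-1.52, adjusted p = 1.67e-08) and Apoa2 (-1.08, adjusted p = 9.64e-12). Their part in the member changes was not tested.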

How the data were processed

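Values were the intensities of the series' value table, which the authors summarised by RMA, per the submitters' processing notes (settings not given in the sources used here) and deposited on a linear scale. From these intensities log2 was taken here, with no further scaling (the design written beforehand had assumed log2 values). Array medians ran from 4.36 to 4.73. Probe sets were named through GEO's platform annotation: 18003 had 1 symbol, 287 several and 4426 none. A gene with several probe sets was read from the one highest on average over all arrays.

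For each line and time, limma 3.58.1 (R 4.3.3) was fitted over all arrays with the 7 batches of the titles as a term. Classes weighted compounds equally, and calls required a Benjamini-Hochberg adjusted p below 0.05 across all 11807 genes. The scripts were tested on simulated data. The members and all lists were chosen with earlier results of these data known.

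Named were the members, the 3 genes most like each member (where at least 3 compounds moved it 2-fold), up to 4 called genes per related list and comparison with the largest change, and the 5 highest liver markers. Promoter windows came from RefSeq, build GRCm38.p6. Alternatives left out the batch term, replicates, compounds, low genes or other groups' arrays, added the array plate as a random block, rescaled arrays or averaged probe sets. The number of arrays limits the precision. A planned test of the members in DMSO at 24 h against 1 h was left out, since the choice of members used DMSO levels.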

Additional observations from a re-analysis of the deposited data

Results flagged for a closer look

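Of 406 combinations of member, compound and time compared between the lines, 4 had a change of at least 2-fold in one line while the arrays of the lines moved in opposite directions, each array being set against the mean DMSO level of its own batch. In these, every array of one line was above that mean and every array of the other below it. In each of the 4 the arrays of 1 line overlapped the range of all DMSO arrays of that line and time. For Fbp1 under BIX-01294 and under chaetocin these were the αTC1 arrays, with 1 chaetocin array, at 8.31, inside that range. For Hsd11b1 under MGCD-0103 and Fbp1 under MS-275 these were the βTC3 arrays. Whether the lines differ was not tested for any of them. The share of all genes that meet this rule was not computed, so nothing is read from the count.

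Hsd11b1 under MGCD-0103 at 24 h had a change of 1.01 in αTC1 and -0.15 in βTC3, a difference of 1.16. For Fbp1 under BIX-01294 at 6 h the changes were -0.24 and 1.29, a difference of -1.53. Fbp1 under MS-275 at 24 h differed by -1.57, with changes of -1.56 and 0.01, where the βTC3 arrays were 0.04 to 0.31 above the DMSO mean of their batch. The largest difference was that of Fbp1 under chaetocin at 24 h, -3.11, with changes of -1.31 over 4 arrays and 1.8 over 3. The 7 genes were also tested for an array far from the others in the groups of 4 to 10 arrays, which were chaetocin at 24 h in αTC1 and DMSO at 6 h in βTC3. Of these 14 sets of values, 0 held such an array, where chance gives about 1 in 20.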

How the results depend on the processing

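No paired analysis was possible because the DMSO titles carry no replicate number, so a replicate block could not be fitted. All 1524 values of named related genes under the alternatives kept their direction and side of the threshold, and 22 of 844 values of the members' class changes moved by more than the spread between arrays. The cause was not tested for the changes below, except where stated.

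Leaving out 1 replicate in turn gave 9 to 14 lower related genes under the anilides at 24 h in αTC1, 5 to 8 at 6 h in βTC3 (5 without CI-994), and 0 to 1 calls under single compounds at 1 h in βTC3. Leaving out genes with a mean level below 5.01 left 6 of the 16 class changes of at least 2-fold, since Selenop, Adh4 and Dpyd then drop out of the fit. Where leaving out a replicate leaves a compound with 1 array, that array is assumed to vary like the other groups. Adh4 and Dpyd in both lines, and Selenop, Fbp1 and Cps1 in βTC3, start at low levels and are limited by signal over background, so their folds are likely understated.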
